A study of Sus scrofa with 14 samples.

Results

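Porcine induced pluripotent stem cells made with lentiviral vectors (Lv-piPSC-F) were compared with porcine embryonic stem cell-like cells grown out of blastocysts (pESCLC-F), with both kinds of cell kept in media built around FGF2, the F condition. Both Lv-piPSC-F samples carry the name of 1 line, ID6. Its sample 2 was labelled passage 46, and the passage of sample 1 is not given in the sources used here. The study names human POU5F1, SOX2 and KLF4 as the ectopic genes of the lentiviral cells. The pESCLC-F samples, A1 and A2, were both labelled passage 2, although the study describes the duplicates of its lines as different passages. No source says that the samples of a pair came from separate cultures, so p-values measure only the spread between these samples, which may be technical. All cells grew on irradiated mouse embryonic fibroblasts. The Lv-piPSC medium was a human embryonic stem cell medium with knockout serum replacement, whereas the pESCLC medium held fetal bovine serum and more FGF2, so that origin, transgenes, passage number and serum cannot be told apart in this comparison. The members are the 14239 genes, of 19588 in the table, that reached 10 normalized counts in at least 2 of these 4 samples. The comparison asks how an induced and an embryo-derived porcine line differ under nominally the same growth factor.

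The 14 samples of the series form 7 pairs. The other 10 are primary blastocyst outgrowths (pESCLC-primary), pESCLC moved to FLB2i (FGF2, LIF, BMP4 and inhibitors of GSK3 and TGFB signalling) or FL6i (FGF2, LIF and 6 kinase inhibitors), and induced cells made with episomal plasmids (Epi-piPSC) in FLB2i or FL6i. Values are read counts per gene divided by a size factor for each sample, called normalized counts here, and a fold change is the difference of mean log2(normalized count + 1), Lv-piPSC-F minus pESCLC-F, with its standard error (SE). The adjusted p is that of limma with Benjamini-Hochberg adjustment over all genes tested. A gene was called at an adjusted p of at most 0.05, and was a differentially expressed gene (DEG) where its log2 fold change was also at least 3 in size, which is 8-fold.

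The blastocyst holds an epiblast, from which embryonic stem cells are drawn, and an outer trophectoderm and an extraembryonic (primitive) endoderm that later lines the yolk sac. Epiblast-type cells depend on a core of transcription factors. In human and pig cells FGF and activin or Nodal signalling maintain the primed form of that state. Extraembryonic endoderm is run by factors of the GATA, FOXA and HNF families. It secretes apolipoproteins, transport proteins and basement membrane, much as fetal liver does.

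Reads on genes numbered 17411166 and 58878377 in the Lv-piPSC-F samples and 19541270 and 19214420 in the pESCLC-F samples. The 2 Lv-piPSC-F samples stood further apart than the 2 pESCLC-F samples. Of the genes with 10 normalized counts in at least 1 sample of the pair, 1204 differed by 8-fold or more between the Lv-piPSC-F samples (8.27%) and 131 between the pESCLC-F samples (0.941%). Mesenchymal genes were part of this gap. COL1A1, the main chain of type I collagen, had 46.2 and 11309 in Lv-piPSC-F and 1661 and 4060.0 in pESCLC-F. POSTN, a matrix protein of fibroblasts, had 0 and 347 in Lv-piPSC-F and 15.7 and 42.5 in pESCLC-F. These genes were picked after their values were seen. The part of passage number or of other cells in this gap was not tested.

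The Lv-piPSC-F libraries also stood apart in counts from opposite strands. ND6 is the mitochondrial complex I subunit whose gene lies on the strand opposite to that of the other mitochondrial protein genes, beside ND5. It reached 30.0% and 20.4% of the ND5 count in Lv-piPSC-F, 1.27% in both pESCLC-F samples and 0.782% to 4.74% in the other 10 samples. Of 11039 tested genes with 1 RefSeq gene, 2275 (20.6%) were called higher and 2407 (21.8%) lower, and 1327 of them had exons that overlapped exons of a tested gene on the opposite strand. In 81 genes this overlap covered at least 10% of the exon bases and the overlapping gene was at least 10 times as abundant in the 10 samples outside the comparison. Of these 81, 20 (24.7%) were called higher and 3 (3.70%) lower, with a median log2 fold change of 0.89. The library kit was stranded, and whether the libraries differed in how strand was kept was not tested. Only exon overlaps in the RefSeq models were examined, and the part of strand in other results was not tested.

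Of 14239 genes, 5760 (40.5%) were called, 2847 (20.0%) higher and 2913 (20.5%) lower in Lv-piPSC-F. The DEGs numbered 1634 (11.5%), of which 764 (5.37%) were higher and 870 (6.11%) lower. In each of the 1634 the 2 samples of one group lay above both samples of the other, and over all genes tested 76.2% did so. The median log2 fold change over all genes was -0.02 and the median SE 0.31. Without either pESCLC-F sample no gene was called by limma, since the spread then rested on the 2 Lv-piPSC-F samples alone. Of the 1634 DEGs, 1502 to 1548 then kept a log2 fold change of at least 3 in size. All kept their sign, which was fixed in advance because their groups lay apart.

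**Figure D1:**
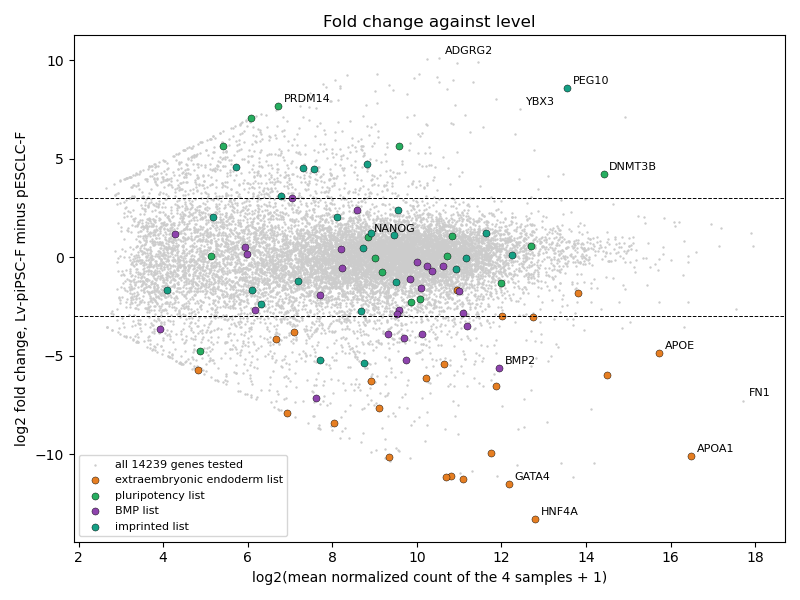
Log2 fold change, Lv-piPSC-F minus pESCLC-F, of the 14239 genes tested (y axis) against log2 of the mean normalized count of the 4 samples plus 1 (x axis), with 4 gene lists in colour and dashed lines at a log2 fold change of 3 and -3. The extraembryonic endoderm list spans GATA6 at -1.68 to HNF4A at -13.26. Of its 24 tested genes 21 were called below the lower line, beside 6.11% of all genes.

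Genes of extraembryonic endoderm were far lower in Lv-piPSC-F. Of 32 genes on that list, 27 were in the table and 24 were tested. Of these 24, 23 were called lower, none higher, and 21 were DEGs, against 6.11% of all genes that were DEGs lower in Lv-piPSC-F. Their median log2 fold change was -6.40, or -6.22 with the 3 genes at 0 in both Lv-piPSC-F samples set at their bound, beside -0.02 over all genes. Summed over the 27 genes, the list took 0.0801% and 0.0705% of all normalized counts in Lv-piPSC-F and 2.34% and 2.03% in pESCLC-F. It took 1.12% and 1.55% in the primary outgrowths and between 0.0574% and 0.113% in the 8 samples of the inhibitor media. The name embryonic stem cell-like stands, for pESCLC-F, beside high levels of endoderm markers. In these bulk samples fewer cells of a type and less RNA per cell cannot be told apart.

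Of the transcription factors of the list, HNF4A, GATA4 and FOXA2 were near 0 in Lv-piPSC-F, whereas FOXA1, HHEX and GATA6 were lower but not near 0. HNF4A, the nuclear receptor that drives apolipoprotein genes in liver and visceral endoderm, had 1.10 and 0 in Lv-piPSC-F and 15090.0 and 13369 in pESCLC-F (log2 fold change -13.26 ± 0.48, adjusted p = 0.00300). With 1 read in Lv-piPSC-F its ratio was 53751 (95% counting interval 9646 to 2123130.0). GATA4, a zinc finger factor of the primitive endoderm, had 8.80 and 0 in Lv-piPSC-F and 10841 and 7679.9 in pESCLC-F (log2 fold change -11.51 ± 1.15, adjusted p = 0.00538). FOXA2, a forkhead factor of endoderm, had 0 and 1.04 in Lv-piPSC-F and 4081 and 2510.4 in pESCLC-F, a ratio of 4137 (95% counting interval 1415 to 20066) on 3 reads in Lv-piPSC-F. FOXA1 had 79.2 and 74.8 in Lv-piPSC-F and 8243 and 6480.3 in pESCLC-F (log2 fold change -6.55), and HHEX, a homeobox gene of anterior endoderm, had 62.7 and 79.4 in Lv-piPSC-F and 3384 and 2811 in pESCLC-F (log2 fold change -5.43). The gap was smaller for GATA6, which starts the primitive endoderm programme and had 668 and 1299 in Lv-piPSC-F and 3319 and 2674 in pESCLC-F (log2 fold change -1.68 ± 0.36, adjusted p = 0.0250). For each of the factors named both pESCLC-F samples lay above both Lv-piPSC-F samples. The groups lay apart, in either direction, in 76.2% of all genes tested.

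Secreted products of this tissue were lower too. APOA1, the main protein of high-density lipoprotein, had 173 and 161 in Lv-piPSC-F and 193978 and 172057 in pESCLC-F (log2 fold change -10.09 ± 0.14, adjusted p = 0.000580), and took 0.948% and 0.885% of all normalized counts in pESCLC-F. APOE, which carries lipids to cells, had 3488 and 3771 in Lv-piPSC-F and 115194 and 93697 in pESCLC-F (log2 fold change -4.84 ± 0.17, adjusted p = 0.00300). In the 8 samples of the inhibitor media APOE lay between 23.1 and 609.5. APOA2 had 0 and 0.348 in Lv-piPSC-F and 1165 and 1444 in pESCLC-F, a ratio of 4942 (95% counting interval 886 to 195287) on 1 read. RBP4, the carrier of retinol in blood, had 7.70 and 2.79 in Lv-piPSC-F and 11037 and 2821 in pESCLC-F (log2 fold change -9.93 ± 0.82, adjusted p = 0.00424). AFP, the fetal counterpart of albumin, was at 0 in both Lv-piPSC-F samples and had 126 and 929 in pESCLC-F, at least 159.7-fold higher. APOC3, which lies beside APOA1 on chromosome 9, was likewise at 0, against 256 and 226 (at least 73.0-fold higher in pESCLC-F). TTR, the thyroid hormone carrier, had 11.003 and 23.0 in Lv-piPSC-F and 343 and 164 in pESCLC-F (log2 fold change -3.81), and APOB had 5.50 and 10.4 in Lv-piPSC-F and 314 and 70.8 in pESCLC-F (log2 fold change -4.12, adjusted p = 0.0254), a call lost without either Lv-piPSC-F sample. TF had 2.20 and 0 in Lv-piPSC-F and 3695 and 4995 in pESCLC-F, a ratio of 8235 (95% counting interval 2279 to 68012); RefSeq gives this symbol to 2 neighbouring genes, transferrin and an inhibitor of carbonic anhydrase, so the count of either is uncertain. The list's uncalled member was LRP2, the endocytic receptor megalin, with 2389.8 and 321 in Lv-piPSC-F and 6949 and 6804 in pESCLC-F (log2 fold change -2.97 ± 0.97, adjusted p = 0.0705), where 1 Lv-piPSC-F sample kept a high level. Another 3 members fell under the count filter, where ALB, CUBN and SERPINA1 had at most 14.7 normalized counts in any of the 4 samples.

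**Figure D2:**
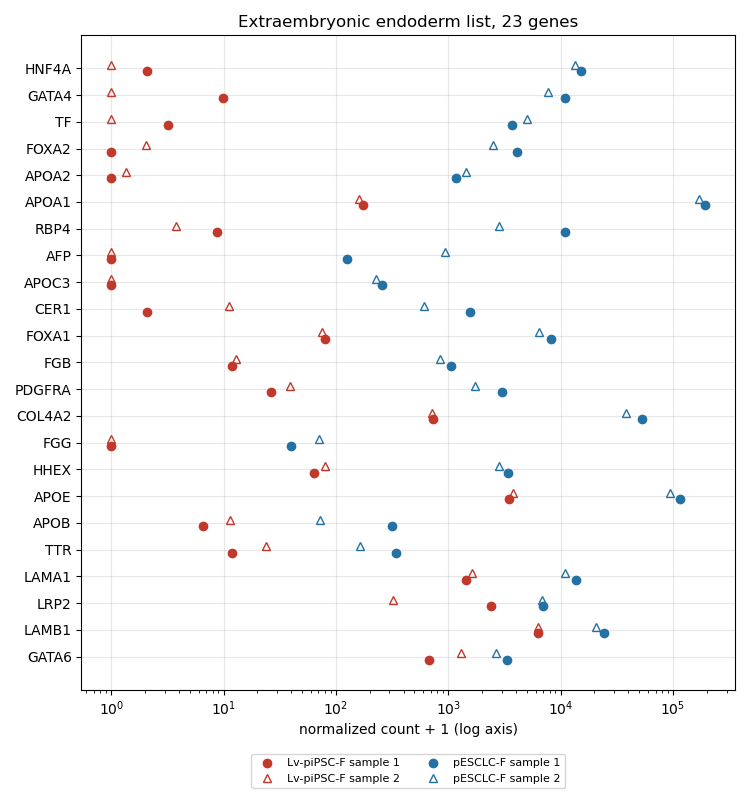
Normalized count plus 1 (log axis) of 23 of the 24 tested genes of the extraembryonic endoderm list in each Lv-piPSC-F sample (red) and each pESCLC-F sample (blue), ordered by fold change. In all 23 genes both blue symbols lie to the right of both red symbols, from the largest fold in HNF4A to the smallest in GATA6. The groups lay apart, in either direction, in 76.2% of all genes tested.

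The 300 bases around the RefSeq start of 3 of these genes (250 before and 50 after it, assembly Sscrofa11.1, written 5′ to 3′ on the strand of the gene) are shown because the factors and the products that moved together are the classic regulators and targets of this programme. Capitals mark a match, on either strand, to the letters AGATAA, which factors of the GATA family bind, to TGTTTAC, the forkhead motif, or to CAAAGTCCA, which HNF4A binds. The windows lie at chr17:46783522-46783821 (+), chr9:44218311-44218610 (-) and chr4:89237264-89237563 (+).
HNF4A: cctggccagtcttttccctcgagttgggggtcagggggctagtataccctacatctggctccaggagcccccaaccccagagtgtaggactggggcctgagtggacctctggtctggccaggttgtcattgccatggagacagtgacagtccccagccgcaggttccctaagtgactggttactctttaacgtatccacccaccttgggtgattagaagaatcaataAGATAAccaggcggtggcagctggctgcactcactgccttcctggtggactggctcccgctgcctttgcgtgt
APOA1: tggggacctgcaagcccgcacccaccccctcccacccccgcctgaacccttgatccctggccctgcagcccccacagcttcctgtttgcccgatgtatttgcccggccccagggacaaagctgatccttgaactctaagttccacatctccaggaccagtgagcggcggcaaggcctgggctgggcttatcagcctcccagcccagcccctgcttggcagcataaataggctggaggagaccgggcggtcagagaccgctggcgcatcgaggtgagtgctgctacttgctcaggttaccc
APOA2: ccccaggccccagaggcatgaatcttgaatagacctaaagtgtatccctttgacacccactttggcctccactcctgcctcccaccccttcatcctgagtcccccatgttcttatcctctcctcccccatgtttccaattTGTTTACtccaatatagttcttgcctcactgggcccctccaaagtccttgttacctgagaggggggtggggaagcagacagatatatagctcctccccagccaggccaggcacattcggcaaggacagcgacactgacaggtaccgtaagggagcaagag
HNF4A held 1 GATA match 23 bases before its start, APOA2 held 1 FOXA match and APOA1 held none of the 3. Over the 22 lower genes of the list with a window, 3 (13.6%) held AGATAA, beside 6.86% of the 10998 windows of tested genes. TGTTTAC was in 1 (4.55%, beside 2.44%) and CAAAGTCCA in none (beside 0.327%). These counts are descriptions of letters in these windows.

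Genes of basement membrane and matrix were among those with the largest falls in absolute level. FN1, fibronectin, had 1609.7 and 4743 in Lv-piPSC-F and 441781 and 410266 in pESCLC-F (log2 fold change -7.27 ± 0.54, adjusted p = 0.00403), and alone took 2.16% and 2.11% of the normalized counts of pESCLC-F. COL4A2, a type IV collagen chain, had 731 and 721 in Lv-piPSC-F and 53061 and 37920.2 in pESCLC-F (log2 fold change -5.95 ± 0.20, adjusted p = 0.00300). LAMA1 and LAMB1, chains of the laminin of early embryos, had 1426 and 1617 in Lv-piPSC-F and 13712 and 10919 in pESCLC-F (log2 fold change -3.01) and 6251 and 6305 in Lv-piPSC-F and 24156 and 20723 in pESCLC-F (log2 fold change -1.83). HSPG2, perlecan, had 3735 and 1328 in Lv-piPSC-F and 27049 and 31366 in pESCLC-F (log2 fold change -3.71), COL18A1 had 5946 and 6895 in Lv-piPSC-F and 63946 and 58639.7 in pESCLC-F (log2 fold change -3.26), and the proteoglycan VCAN had 5187 and 4045 in Lv-piPSC-F and 58001 and 51062 in pESCLC-F (log2 fold change -3.57). Of 31 tested genes on the laminin, collagen IV and integrin list, 15 were lower and 3 higher (median -1.09), beside 20.5% and 20.0% of all genes. LAMA4, a laminin chain of vessels and mesenchyme, went the other way, with 627 and 1006 in Lv-piPSC-F and 11.5 and 26.3 in pESCLC-F (log2 fold change 5.43 ± 0.55, adjusted p = 0.00557). ITGB3, a receptor subunit for fibronectin and vitronectin, had 53.9 and 185 in Lv-piPSC-F and 1744 and 2536 in pESCLC-F (log2 fold change -4.38).

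Other genes with the largest falls were of mixed kind. GPC3, a heparan sulfate proteoglycan of fetal tissues, had 13.2 and 50.5 in Lv-piPSC-F and 41589 and 32682 in pESCLC-F (log2 fold change -10.41). SPON1, a secreted matrix protein, had 19.8 and 5.22 in Lv-piPSC-F and 33446 and 19408 in pESCLC-F (log2 fold change -11.13); unlike the apolipoproteins it was also high in pESCLC-FLB2i, at 6969 and 31061. LHX1, a homeobox gene of anterior mesendoderm, had 4.40 and 1.04 in Lv-piPSC-F and 9794 and 5503 in pESCLC-F (log2 fold change -11.11). SLC34A2, a phosphate transporter, had 3.30 and 10.4 in Lv-piPSC-F and 11933 and 9298 in pESCLC-F (log2 fold change -10.55). SLC28A3, a nucleoside transporter, had 246 and 0 in Lv-piPSC-F and 21232 and 21711 in pESCLC-F (log2 fold change -10.41 ± 2.66, adjusted p = 0.0383); its 2 Lv-piPSC-F samples were far apart, and the call was lost with edgeR (adjusted p = 0.0727) and with DESeq2 (adjusted p = 0.0577). NTSR2, a neurotensin receptor, was at 0 in Lv-piPSC-F and had 1501 and 1115 in pESCLC-F, at least 396-fold higher. SDK1, an adhesion molecule, had 0 and 1.39 in Lv-piPSC-F and 1903 and 1733 in pESCLC-F (log2 fold change -10.20). GPX3, a secreted peroxidase, had 116 and 183 in Lv-piPSC-F and 17360.3 and 53115 in pESCLC-F (log2 fold change -7.70), and NPC2, which moves cholesterol out of lysosomes, had 2504 and 2049.8 in Lv-piPSC-F and 27042 and 21701 in pESCLC-F (log2 fold change -3.42).

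Of 15 tested genes on the mesoderm list 7 were lower and 1 higher, beside 20.5% and 20.0% of all genes. Another 7 were not called (list median -2.01). EOMES, a T-box factor of mesendoderm and trophoblast, had 38.5 and 201 in Lv-piPSC-F and 7398 and 6197 in pESCLC-F (log2 fold change -6.25 ± 0.80, adjusted p = 0.00819). GSC had 13.2 and 32.0 in Lv-piPSC-F and 1029.9 and 401 in pESCLC-F (log2 fold change -4.89), and MIXL1 was at 0 in Lv-piPSC-F against 145 and 103 (at least 37.7-fold higher in pESCLC-F). KDR, a VEGF receptor, had 1.10 and 2.44 in Lv-piPSC-F and 1519 and 778 in pESCLC-F (log2 fold change -8.66), and NKX2-5, a cardiac homeobox gene, was at 0 against 599 and 214 (at least 123-fold higher). The member that was higher in Lv-piPSC-F was WT1, with 25.3 and 25.8 against 0 (at least 8.13-fold higher). TBXT, the classic primitive streak gene, stayed under the filter, at no more than 7.70 in any of the 4 samples. PDGFRA, counted on both the endoderm and mesoderm lists, had 25.3 and 38.3 in Lv-piPSC-F and 2991 and 1722 in pESCLC-F (log2 fold change -6.14). Lists shared other genes too, so their counts are not independent. EOMES is also on the trophectoderm list, and KRT8, KRT18 and KRT19 are on the trophectoderm and epithelial lists. COL4A2, LAMA1 and LAMB1, named above with the basement membrane, are also on the endoderm list.

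Trophectoderm and epithelial genes moved less evenly. On the trophectoderm list 6 of 16 tested genes were lower and 3 higher (median -1.595), beside 20.5% and 20.0% of all genes. The keratins KRT8 and KRT18, which pair into the filaments of simple epithelia, had 61534 and 44803 in Lv-piPSC-F and 335906 and 317022 in pESCLC-F (log2 fold change -2.64 ± 0.27, adjusted p = 0.00578) and 28622 and 31265 in Lv-piPSC-F and 142399 and 144488 in pESCLC-F (log2 fold change -2.26). KRT7 had 345 and 221 in Lv-piPSC-F and 2886 and 2234 in pESCLC-F (log2 fold change -3.19) and DAB2, an endocytic adaptor of endoderm and trophoblast, had 336 and 65.5 in Lv-piPSC-F and 4827 and 6661 in pESCLC-F (log2 fold change -5.25). TFAP2C, a factor of trophoblast, germ cells and naive pluripotency, was the reverse, with 212 and 909.7 in Lv-piPSC-F and 0 and 2.02 in pESCLC-F, a ratio of 721 (95% counting interval 199 to 5959) on 2 reads in pESCLC-F. GATA3 had 159.5 and 10.1 in Lv-piPSC-F and 209 and 789.9 in pESCLC-F (log2 fold change -3.27 ± 1.47, adjusted p = 0.142) and was not called, and CDX2 was under the filter. On the epithelial list 14 of 26 were lower and 1 higher (median -1.02), beside 20.5% and 20.0% of all genes. It held 1 DEG in each direction, beside 6.11% lower and 5.37% higher over all genes. GRHL2, a driver of epithelial junction genes, had 58.3 and 2.09 in Lv-piPSC-F and 1657 and 1662 in pESCLC-F (log2 fold change -6.94 ± 1.45, adjusted p = 0.0236); PKP2 of desmosomes had 1528 and 1221 in Lv-piPSC-F and 10867 and 9658 in pESCLC-F (log2 fold change -2.91), SPINT1 had 1159.7 and 1109 in Lv-piPSC-F and 4896 and 4959 in pESCLC-F (log2 fold change -2.12) and EPCAM had 3422 and 4651 in Lv-piPSC-F and 8377 and 8981 in pESCLC-F (log2 fold change -1.12). CDH1, E-cadherin, had 25547 and 16469 in Lv-piPSC-F and 12401 and 11767 in pESCLC-F and was not called (log2 fold change 0.76 ± 0.25, adjusted p = 0.0705). CDH2, N-cadherin, had 2798 and 1465 in Lv-piPSC-F and 6400.5 and 3276 in pESCLC-F and was not called (log2 fold change -1.18 ± 0.46, adjusted p = 0.107).

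Several genes of the pluripotency network were higher in Lv-piPSC-F, while others did not pass the test. Of 16 tested genes on the list 6 were higher and 4 lower, beside 20.0% and 20.5% of all genes. Another 6 were not called (list median 0.32). POU5F1 and SOX2 were not analysed here. DNMT3B, the de novo DNA methyltransferase of primed pluripotent cells, had 35581 and 47300.2 in Lv-piPSC-F and 1947 and 2537 in pESCLC-F (log2 fold change 4.21 ± 0.22, adjusted p = 0.00335), the largest rise in absolute level of any DEG with a symbol. PRDM14, a repressor of differentiation in pluripotent and germ cells, had 163 and 257 in Lv-piPSC-F and 0 in both pESCLC-F samples, at least 66.9-fold higher. In the other 10 samples it did not exceed 1.84. FOXD3 had 135 and 131 against 0 (at least 42.3-fold higher). DPPA5, an RNA-binding protein of early embryo cells, had 128 and 37.6 in Lv-piPSC-F and 1.05 and 0 in pESCLC-F, a ratio of 115 (95% counting interval 20.5 to 4569) on 1 read. NANOG had 418 and 847 in Lv-piPSC-F and 239.7 and 343 in pESCLC-F (log2 fold change 1.05 ± 0.43, adjusted p = 0.115) and was not called, although DESeq2 gave an adjusted p of 0.0458; RefSeq lists 2 genes of that name. LIN28A had 8813 and 7007 in Lv-piPSC-F and 5798 and 4975 in pESCLC-F (log2 fold change 0.55 ± 0.18, adjusted p = 0.0690), LIN28B had 1724 and 1711 in Lv-piPSC-F and 1643 and 1594 in pESCLC-F (log2 fold change 0.09 ± 0.13, adjusted p = 0.618) and TERT had 599.6 and 412 in Lv-piPSC-F and 657 and 401 in pESCLC-F (log2 fold change -0.05 ± 0.35, adjusted p = 0.925), none of them called. OTX2 (2338 and 2219.7 in Lv-piPSC-F and 6664 and 4904 in pESCLC-F, log2 fold change -1.33) and GDF3 (1.10 and 1.04 in Lv-piPSC-F and 64.9 and 45.5 in pESCLC-F, log2 fold change -4.74) were lower.

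**Figure D3:**
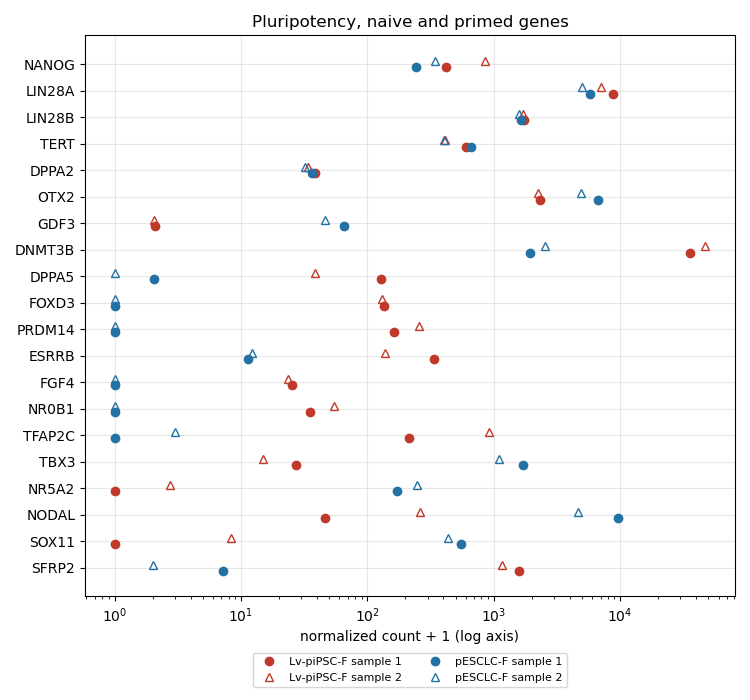
Normalized count plus 1 (log axis) of 20 genes of the pluripotency, naive and primed lists in each Lv-piPSC-F sample (red) and each pESCLC-F sample (blue). LIN28A, LIN28B, TERT and DPPA2 lie close together in the 4 samples, while FOXD3, PRDM14, FGF4 and NR0B1 are at 0 in both pESCLC-F samples and NODAL, NR5A2, TBX3 and SOX11 lie to the left in Lv-piPSC-F.

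Genes used to name naive and primed states were split. On the naive list 6 of 13 tested genes were higher and 2 lower (median 0.76), beside 20.0% and 20.5% of all genes. ESRRB, an orphan nuclear receptor of mouse naive cells, had 334 and 138 in Lv-piPSC-F and 10.467 and 11.126 in pESCLC-F (log2 fold change 4.19 ± 0.60, adjusted p = 0.0102). FGF4 had 24.2 and 22.6 against 0 (at least 7.46-fold higher), and NR0B1 had 34.1 and 54.0 against 0 (at least 14.02-fold higher). KLF4 had 122 and 368 in Lv-piPSC-F and 32.4 and 49.6 in pESCLC-F (log2 fold change 2.37 ± 0.67, adjusted p = 0.0493). The line carries a human KLF4 transgene, and reads of it and of the pig gene cannot be told apart in gene counts. NR5A2 had 0 and 1.74 in Lv-piPSC-F and 171 and 245 in pESCLC-F (log2 fold change -6.95) and TBX3 had 26.4 and 13.9 in Lv-piPSC-F and 1716 and 1094 in pESCLC-F (log2 fold change -6.08), both lower. On the primed list 3 of 14 were higher, near the 20.0% of all genes, and 5 lower, beside 20.5% (median -1.04). SFRP2, a secreted WNT antagonist, had 1583 and 1155 in Lv-piPSC-F and 6.28 and 1.01 in pESCLC-F (log2 fold change 8.47 ± 0.75, adjusted p = 0.00469). SOX11 had 0 and 7.31 in Lv-piPSC-F and 549.5 and 432 in pESCLC-F (log2 fold change -7.40).

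Nodal ligands act through activin receptors on SMAD2 and SMAD3, and induce their own antagonists. Of 29 tested genes of the Nodal and TGFB pathway 11 were lower and 3 higher, beside 20.5% and 20.0% of all genes. The other 15 were not called (list median -1.02). NODAL had 45.1 and 260.1 in Lv-piPSC-F and 9532 and 4677 in pESCLC-F (log2 fold change -5.93 ± 0.91, adjusted p = 0.0116). The antagonist CER1 had 1.10 and 10.1 in Lv-piPSC-F and 1565 and 611 in pESCLC-F (log2 fold change -7.66 ± 1.00, adjusted p = 0.00849). LEFTY2, another feedback antagonist, had 2.20 and 224 in Lv-piPSC-F and 6281 and 967 in pESCLC-F, with samples of each group too far apart for a call (log2 fold change -6.52 ± 2.25, adjusted p = 0.0794). The receptor ACVR1B had 609.5 and 756 in Lv-piPSC-F and 2401 and 2338 in pESCLC-F (log2 fold change -1.80), SMAD2 had 341 and 515 in Lv-piPSC-F and 2716 and 1863 in pESCLC-F (log2 fold change -2.42), SMAD3 had 70.4 and 753 in Lv-piPSC-F and 4122 and 2780.5 in pESCLC-F (log2 fold change -3.87 ± 1.16, adjusted p = 0.0570, not called; 24.2% of its exon bases overlap AAGAB on the opposite strand) and the inhibitory SMAD7 had 56.1 and 207 in Lv-piPSC-F and 1052 and 649 in pESCLC-F (log2 fold change -2.92). The receptor TGFBR2 had 648 and 812 in Lv-piPSC-F and 29.3 and 53.6 in pESCLC-F (log2 fold change 4.16 ± 0.42, adjusted p = 0.00550) and the ligand TGFB2 had 252 and 375 in Lv-piPSC-F and 19.9 and 57.7 in pESCLC-F (log2 fold change 3.14 ± 0.64, adjusted p = 0.0217), a call lost without either Lv-piPSC-F sample. INHBA, the activin A subunit, had 6.60 and 2835 in Lv-piPSC-F and 55.5 and 91.0 in pESCLC-F and was not called.

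Of 27 tested genes on the BMP list 12 were lower and 2 higher, beside 20.5% and 20.0% of all genes, and 13 were not called. The DEGs numbered 8 lower and 1 higher, beside 6.11% and 5.37% of all genes (list median -1.71). BMP4 had 50.6 and 37.6 in Lv-piPSC-F and 1598 and 1729.6 in pESCLC-F (log2 fold change -5.22 ± 0.28, adjusted p = 0.00335), BMP2 had 50.6 and 453 in Lv-piPSC-F and 7307 and 7880.2 in pESCLC-F (log2 fold change -5.63 ± 1.06, adjusted p = 0.0181), and BMP7 had 63.8 and 97.5 in Lv-piPSC-F and 1382 and 1014 in pESCLC-F (log2 fold change -3.89). The signal transducer SMAD1 had 347 and 402 in Lv-piPSC-F and 4663 and 3836 in pESCLC-F (log2 fold change -3.50 ± 0.18, adjusted p = 0.00335), and the feedback inhibitor SMAD6 had 73.7 and 110.012 in Lv-piPSC-F and 1776 and 1329 in pESCLC-F (log2 fold change -4.08). Among targets, ID2 had 166 and 99.9 in Lv-piPSC-F and 2816 and 1362 in pESCLC-F (log2 fold change -3.92), ID3 had 987 and 270.2 in Lv-piPSC-F and 3449.9 and 3988 in pESCLC-F (log2 fold change -2.84) and MSX2 had 180.4 and 171 in Lv-piPSC-F and 1442 and 1137 in pESCLC-F (log2 fold change -2.86), whereas ID1 had 1797 and 455 in Lv-piPSC-F and 3113 and 2805 in pESCLC-F and was not called (log2 fold change -1.71 ± 0.67, adjusted p = 0.108). The antagonist NOG, noggin, had 2.20 and 1.39 in Lv-piPSC-F and 433 and 344 in pESCLC-F (log2 fold change -7.13 ± 0.50, adjusted p = 0.00391). Its counterpart CHRD, chordin, was higher, with 929 and 375 in Lv-piPSC-F and 125 and 100.1 in pESCLC-F (log2 fold change 2.39), and 21.1% of its exon bases overlap THPO on the opposite strand. Also higher was MSX1, with 267 and 200.2 in Lv-piPSC-F and 23.0 and 33.4 in pESCLC-F (log2 fold change 3.02).

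WNT genes were called in both directions. Of 49 tested genes 19 were lower and 9 higher (median -0.64), beside 20.5% lower and 20.0% higher over all genes. The antagonist DKK1 had 0 and 0.348 in Lv-piPSC-F and 889.7 and 1195 in pESCLC-F, a ratio of 3950.4 (95% counting interval 708 to 156107) on 1 read in Lv-piPSC-F. FRZB, a decoy receptor, had 105 and 59.5 in Lv-piPSC-F and 12412 and 11103 in pESCLC-F (log2 fold change -7.20 ± 0.31, adjusted p = 0.00331). Of ligands, WNT11 had 3.30 and 56.7 in Lv-piPSC-F and 2349 and 2051 in pESCLC-F (log2 fold change -7.12) and WNT2B had 33.0 and 20.9 in Lv-piPSC-F and 711 and 814 in pESCLC-F (log2 fold change -4.80), while WNT3A was higher, with 57.2 and 68.9 in Lv-piPSC-F and 7.33 and 7.08 in pESCLC-F (log2 fold change 2.96). The receptors FZD5 and FZD8 had 808 and 485 in Lv-piPSC-F and 14331 and 9035 in pESCLC-F (log2 fold change -4.18) and 52.8 and 45.95 in Lv-piPSC-F and 3512 and 2415 in pESCLC-F (log2 fold change -5.86). FZD10 was higher, with 149.6 and 125 in Lv-piPSC-F and 1.05 and 0 in pESCLC-F, a ratio of 254 (95% counting interval 45.4 to 10052) on 1 read in pESCLC-F. LGR5, the R-spondin receptor, had 12.1 and 3.13 in Lv-piPSC-F and 987 and 612 in pESCLC-F (log2 fold change -6.72), the co-receptor LRP5 had 248 and 117 in Lv-piPSC-F and 2450.3 and 2166 in pESCLC-F (log2 fold change -3.75) and the nuclear partner TCF7 had 60.5 and 94.0 in Lv-piPSC-F and 802 and 776 in pESCLC-F (log2 fold change -3.37). AXIN2, the usual readout of the canonical pathway, had 139 and 303 in Lv-piPSC-F and 53.4 and 111 in pESCLC-F and was not called (log2 fold change 1.40 ± 0.61, adjusted p = 0.132).

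FGF ligands were called in both directions. Of 32 tested genes 14 were lower and 8 higher (median -1.15), beside 20.5% lower and 20.0% higher over all genes. FGF17 had 0 and 0.348 in Lv-piPSC-F and 1079 and 557 in pESCLC-F, a ratio of 3077 (95% counting interval 551 to 121612) on 1 read in Lv-piPSC-F, and FGF8 had 0 and 2.44 in Lv-piPSC-F and 244 and 167 in pESCLC-F (log2 fold change -6.77). FGF2 itself, the factor added to both media, had 792 and 700.5 in Lv-piPSC-F and 19.9 and 113 in pESCLC-F (log2 fold change 3.93 ± 0.87, adjusted p = 0.0266), a call lost without either Lv-piPSC-F sample. Of its exon bases 15.2% overlap NUDT6 on the opposite strand, which was at 416 and 107 in Lv-piPSC-F and 97.3 and 154 in pESCLC-F. FGF19 had 154 and 289 in Lv-piPSC-F and 8.37 and 3.03 in pESCLC-F (log2 fold change 5.11). The receptors FGFR1 and FGFR3 had 2938 and 2806 in Lv-piPSC-F and 7832 and 6156 in pESCLC-F (log2 fold change -1.27) and 1165 and 505 in Lv-piPSC-F and 5316 and 4990.5 in pESCLC-F (log2 fold change -2.75). Feedback genes of the ERK pathway did not share a direction: SPRY2 had 244 and 455 in Lv-piPSC-F and 1836 and 1658 in pESCLC-F (log2 fold change -2.38), DUSP6 had 873 and 1366 in Lv-piPSC-F and 2633 and 2830.0 in pESCLC-F (log2 fold change -1.32) and ETV4 had 256 and 377 in Lv-piPSC-F and 1299 and 1759.9 in pESCLC-F (log2 fold change -2.28), while DUSP4 had 5292 and 7777 in Lv-piPSC-F and 1293 and 1092 in pESCLC-F (log2 fold change 2.43) and ETV5 had 2259 and 2750.3 in Lv-piPSC-F and 1208 and 1115 in pESCLC-F (log2 fold change 1.10). SPRY4 had 479.7 and 1563 in Lv-piPSC-F and 300.4 and 287 in pESCLC-F and was not called (log2 fold change 1.56 ± 0.60, adjusted p = 0.101).

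In the LIF and JAK-STAT list 9 of 28 tested genes were lower and 4 higher (median -0.55), beside 20.5% and 20.0% of all genes. LIF had 103 and 159 in Lv-piPSC-F and 3.14 and 7.08 in pESCLC-F (log2 fold change 4.48 ± 0.62, adjusted p = 0.00934). Its receptor LIFR had 171 and 258 in Lv-piPSC-F and 221 and 226 in pESCLC-F and the effector STAT3 had 1054 and 998 in Lv-piPSC-F and 1047 and 1152 in pESCLC-F, neither called (log2 fold change -0.10 ± 0.15, adjusted p = 0.624 for STAT3). The related receptor OSMR had 30.8 and 19.5 in Lv-piPSC-F and 691 and 445 in pESCLC-F (log2 fold change -4.44). The feedback inhibitors SOCS1 and SOCS3 had 12.1 and 9.05 in Lv-piPSC-F and 1096 and 716 in pESCLC-F (log2 fold change -6.27 ± 0.43, adjusted p = 0.00374) and 103 and 44.9 in Lv-piPSC-F and 529.6 and 516 in pESCLC-F (log2 fold change -2.92). Of 19 tested Notch genes 8 were lower and 1 higher (median -0.88), beside 20.5% and 20.0% of all genes. The ligand DLL1 had 9.90 and 0.348 in Lv-piPSC-F and 1068 and 597 in pESCLC-F (log2 fold change -7.70), and the receptor NOTCH3 had 485 and 151 in Lv-piPSC-F and 4522 and 4209 in pESCLC-F (log2 fold change -4.01). The glycosyltransferase LFNG had 441 and 395 in Lv-piPSC-F and 2115 and 2150.3 in pESCLC-F (log2 fold change -2.35), and the target HES1 had 286 and 329 in Lv-piPSC-F and 2255 and 1607 in pESCLC-F (log2 fold change -2.63).

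**Figure D4:**
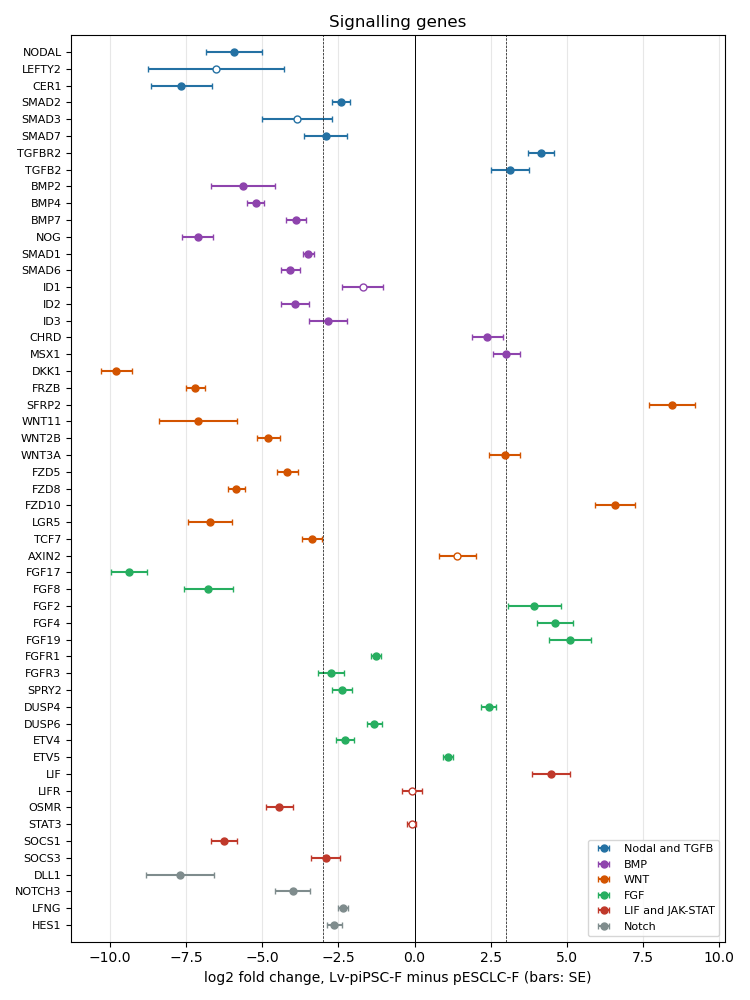
Log2 fold change, Lv-piPSC-F minus pESCLC-F (x axis), of 53 signalling genes in 6 pathways, with bars for the SE, filled symbols for genes called and open symbols for genes not called, and dashed lines at 3 and -3. BMP ligands, SMAD1, SMAD6, ID2 and NOG lie to the left of the lower line, and SFRP2, FZD10, FGF2, FGF4, FGF19, LIF, TGFBR2, TGFB2 and MSX1 to the right of the upper line.

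Of 21 tested genes on the DNA methylation and Polycomb list 4 were higher and 5 lower (median -0.01), shares near the 20.0% and 20.5% of all genes. DNMT3A, the other de novo enzyme, had 716 and 542 in Lv-piPSC-F and 1844 and 1530.3 in pESCLC-F (log2 fold change -1.43). UHRF1, which guides maintenance methylation, had 962 and 841 in Lv-piPSC-F and 2372 and 3062 in pESCLC-F (log2 fold change -1.58), while the maintenance enzyme DNMT1 had 5393 and 4822 in Lv-piPSC-F and 4960.2 and 4775 in pESCLC-F and was not called (log2 fold change 0.07 ± 0.13, adjusted p = 0.701). TET1 and TET3, which oxidise methylcytosine, had 1042 and 495 in Lv-piPSC-F and 3255 and 2171 in pESCLC-F (log2 fold change -1.89) and 343 and 165 in Lv-piPSC-F and 1158 and 851 in pESCLC-F (log2 fold change -2.06). PHF19, a Polycomb partner, had 397 and 183 in Lv-piPSC-F and 5.23 and 6.07 in pESCLC-F (log2 fold change 5.35 ± 0.58, adjusted p = 0.00624).

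Of 24 tested imprinted genes 8 were higher and 6 lower (median 0.79), beside 20.0% and 20.5% of all genes. The DEGs among those higher numbered 5, beside 5.37% of all genes. Fewer genes of the list were DEGs higher without either Lv-piPSC-F sample, and without sample 1 the list median was 0.34. PEG10, a retrotransposon-derived gene expressed from the paternal allele in mammals studied so far, had 23437 and 24230.5 in Lv-piPSC-F and 643 and 5.06 in pESCLC-F (log2 fold change 8.58 ± 2.25, adjusted p = 0.0411). PEG10 lay between 14235 and 39609 in the inhibitor media, embryo-derived lines included, and had 2715 and 2127 in the primary outgrowths. Its 2 pESCLC-F samples were far apart, and the call was lost with edgeR (adjusted p = 0.0708) and without either Lv-piPSC-F sample. SGCE, whose RefSeq gene ends at position 74473904 of chromosome 9 where PEG10 starts at 74474121 on the other strand, had 384 and 337 in Lv-piPSC-F and 13.6 and 17.2 in pESCLC-F (log2 fold change 4.47 ± 0.40, adjusted p = 0.00481). PLAGL1, a zinc finger gene that restrains growth, had 803 and 880.1 in Lv-piPSC-F and 98.4 and 9.10 in pESCLC-F (log2 fold change 4.73 ± 1.14, adjusted p = 0.0331), a call lost without either Lv-piPSC-F sample. DLK1, a Notch-related ligand, had 286 and 107 in Lv-piPSC-F and 36.6 and 10.1 in pESCLC-F (log2 fold change 3.11 ± 0.86, adjusted p = 0.0466), also lost without either of these samples. NDN had 907 and 779.8 in Lv-piPSC-F and 1293 and 18.2 in pESCLC-F, with 1 pESCLC-F sample above and 1 below Lv-piPSC-F. Lower were CDKN1C, a cell cycle inhibitor, with 13.2 and 27.9 in Lv-piPSC-F and 803 and 874 in pESCLC-F (log2 fold change -5.37 ± 0.47, adjusted p = 0.00462), and SLC22A18, with 17.6 and 5.57 in Lv-piPSC-F and 447 and 364 in pESCLC-F (log2 fold change -5.19). Both lie on chromosome 2, from 2019391 and from 2032370. PEG3 was under the filter at 0 and 0.696 in Lv-piPSC-F and 553 and 3.03 in pESCLC-F, so that pESCLC-F sample 1 was the higher of the 2 embryo-derived samples for PEG10, NDN and PEG3.

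The Y-linked genes were high in Lv-piPSC-F and near 0 in pESCLC-F. KDM5D, a histone demethylase of the Y chromosome, had 321 and 214 in Lv-piPSC-F and 3.14 and 3.03 in pESCLC-F (log2 fold change 6.01 ± 0.51, adjusted p = 0.00436), and EIF1AY, a translation factor, had 526 and 863 in Lv-piPSC-F and 15.7 and 9.10 in pESCLC-F (log2 fold change 5.70 ± 0.50, adjusted p = 0.00453). KDM5D had 242 and 181 in Epi-piPSC-FL6i and 1.03 and 0 in Epi-piPSC-FLB2i. In pESCLC-primary it had 68.9 in sample 1 and 1.09 in sample 2. On the X and Y list 3 of 6 were higher and 1 lower, beside 20.0% and 20.5% of all genes. EIF1AX, the X-linked partner of EIF1AY, had 5373 and 6997 in Lv-piPSC-F and 2962 and 3524 in pESCLC-F (log2 fold change 0.92). The sex of the cells and their origin cannot be told apart in this comparison.

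Of 22 tested genes of glycolysis 9 were lower and 1 higher, beside 20.5% and 20.0% of all genes. The other 12 were not called, and 1 gene was a DEG lower in Lv-piPSC-F, beside 6.11% of all genes (list median -1.02). SLC16A3, the lactate exporter of glycolytic cells, had 103 and 147 in Lv-piPSC-F and 14302 and 12094 in pESCLC-F (log2 fold change -6.73 ± 0.23, adjusted p = 0.00300). HK2, the first enzyme of the pathway, had 1101 and 1721 in Lv-piPSC-F and 8087 and 5541 in pESCLC-F (log2 fold change -2.28), PFKFB3 had 629 and 1387 in Lv-piPSC-F and 9322 and 5339 in pESCLC-F (log2 fold change -2.92) and GAPDH had 48221 and 62824 in Lv-piPSC-F and 116827 and 91295 in pESCLC-F (log2 fold change -0.91 ± 0.26, adjusted p = 0.04997), a call at the edge of the threshold that was lost without Lv-piPSC-F sample 1 (adjusted p = 0.108), with a pseudocount of 0.1, no filter, TMM scaling, all 14 samples or the replicate block. In the other 10 samples SLC16A3 lay between 1124 and 11221.

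Of 35 tested genes of the cell cycle and p53 list 6 were higher and 4 lower (median 0.28), both shares below those of all genes. CDKN2A, which encodes inhibitors of the G1 kinases and of MDM2, had 112 and 221 in Lv-piPSC-F and 6.28 and 3.03 in pESCLC-F (log2 fold change 4.87 ± 0.65, adjusted p = 0.00872). CCNA1 had 239.9 and 111 in Lv-piPSC-F and 6.28 and 12.1 in pESCLC-F (log2 fold change 4.07). MYC had 205 and 2195 in Lv-piPSC-F and 44.0 and 49.6 in pESCLC-F, above both pESCLC-F samples in each Lv-piPSC-F sample but with a wide gap between them (log2 fold change 3.82 ± 1.18, adjusted p = 0.0608). On the list of major histocompatibility and interferon genes 6 of 19 were higher and 1 lower (median 0.73), beside 20.0% and 20.5% of all genes. TAP2 and PSMB8, neighbours on chromosome 7 that serve antigen presentation, had 913 and 480.1 in Lv-piPSC-F and 4.19 and 18.2 in pESCLC-F (log2 fold change 6.05 ± 0.80, adjusted p = 0.00863) and 110.026 and 49.4 in Lv-piPSC-F and 0 and 1.01 in pESCLC-F, the latter a ratio of 124 (95% counting interval 22.1 to 4934) on 1 read. Their neighbour TAP1 had 547 and 209 in Lv-piPSC-F and 119 and 112 in pESCLC-F and was not called (log2 fold change 1.54 ± 0.54, adjusted p = 0.0815). MX1, an antiviral GTPase, had 867 and 410.5 in Lv-piPSC-F and 51.3 and 2.02 in pESCLC-F (log2 fold change 5.57 ± 1.47, adjusted p = 0.0414), a call lost without either Lv-piPSC-F sample.

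Counts on the remaining lists stand beside 20.0% higher and 20.5% lower over all genes. On the ectoderm and neural list 5 of 15 were higher and 4 lower (median -0.05): CRABP2, a retinoic acid carrier, had 1905 and 2157 in Lv-piPSC-F and 62.8 and 40.5 in pESCLC-F (log2 fold change 5.30 ± 0.31, adjusted p = 0.00335), and SOX3 had 66.0 and 31.3 against 0 (at least 15.5-fold higher), while NES had 528 and 623 in Lv-piPSC-F and 4418 and 3930.5 in pESCLC-F (log2 fold change -2.86) and DCX had 1.10 and 0.696 in Lv-piPSC-F and 145 and 84.96 in pESCLC-F, a ratio of 145 (95% counting interval 48.8 to 706) on 3 reads in Lv-piPSC-F. On the mesenchyme list 4 of 24 were higher and 4 lower (median -0.51); VIM, TAGLN and LOX were higher, with 12458 and 18414 in Lv-piPSC-F and 4344 and 5726 in pESCLC-F (log2 fold change 1.603), 6027 and 6408 in Lv-piPSC-F and 916 and 1566 in pESCLC-F (log2 fold change 2.37) and 674 and 1589.9 in Lv-piPSC-F and 127 and 202 in pESCLC-F (log2 fold change 2.69). Without Lv-piPSC-F sample 1 that list's median became 1.45 and without sample 2 it became -2.46. Of 5 tested germ line genes 3 were higher and 2 lower (median 2.78): TDRD12, of the piRNA pathway, had 908 and 771 in Lv-piPSC-F and 99.4 and 56.6 in pESCLC-F (log2 fold change 3.46), and SYCP2, of the synaptonemal complex, had 15.4 and 6.61 in Lv-piPSC-F and 750.5 and 1169 in pESCLC-F (log2 fold change -6.39). PRDM1, on the germ line list and also a gene of endoderm, had 70.4 and 138 in Lv-piPSC-F and 2495 and 1788 in pESCLC-F (log2 fold change -4.41). Of 9 tested HOX genes 4 were higher and 1 lower (median 2.28), with HOXD8 at 146 and 163 in Lv-piPSC-F and 3.14 and 9.10 in pESCLC-F (log2 fold change 4.59 ± 0.64, adjusted p = 0.00960) and HOXA10 at 0 and 3.48 in Lv-piPSC-F and 57.6 and 22.3 in pESCLC-F (log2 fold change -4.12 ± 1.02, adjusted p = 0.0350), a call lost without Lv-piPSC-F sample 1 (adjusted p = 0.0550), with a pseudocount of 0.1, no filter, edgeR or the replicate block. Of 7 tested endothelial and blood genes 2 were lower and none higher (median -1.17); CDH5 was at 0 in Lv-piPSC-F against 71.2 and 74.8, and the leukocyte gene PTPRC had 7.70 and 44.6 in Lv-piPSC-F and 47.1 and 45.5 in pESCLC-F and was not called. On the growth arrest and stress list 2 of 17 were higher and 4 lower (median -0.38).

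Genes outside the lists had the largest rises. ADGRG2, an adhesion receptor, had 4068 and 1819 in Lv-piPSC-F and 2.09 and 1.01 in pESCLC-F, a ratio of 1529 (95% counting interval 523 to 7415) on 3 reads in pESCLC-F. USP44, a deubiquitinase of mitosis, had 6803 and 3410.0 in Lv-piPSC-F and 11.5 and 7.08 in pESCLC-F (log2 fold change 8.90 ± 0.47, adjusted p = 0.00335), and 1.79% of its exon bases overlap METAP2 on the opposite strand. HERC5, the ligase for ISG15, had 2973 and 2753 in Lv-piPSC-F and 3.14 and 5.06 in pESCLC-F (log2 fold change 9.16 ± 0.38, adjusted p = 0.00331), and was at 31.5 and 26.6 in pESCLC-FLB2i and at 387 and 554 in Epi-piPSC-FL6i. NEXN, which binds actin, had 2963 and 4951 in Lv-piPSC-F and 3.14 and 3.03 in pESCLC-F (log2 fold change 9.87). Of the exon bases of NEXN 54.9% overlap FUBP1 on the opposite strand, which was at 4521 and 6490 in Lv-piPSC-F and 2766 and 3030 in pESCLC-F, so that reads of NEXN and FUBP1 may not be told apart. KCNJ3, a potassium channel, had 2934 and 2919.8 in Lv-piPSC-F and 5.23 and 5.06 in pESCLC-F (log2 fold change 8.90 ± 0.32, adjusted p = 0.00300). CAMKV, a kinase-like protein, had 2340.2 and 2488 in Lv-piPSC-F and 0 and 4.05 in pESCLC-F (log2 fold change 10.07), FABP7, a fatty acid binding protein, had 6640.0 and 4434 in Lv-piPSC-F and 1.05 and 14.2 in pESCLC-F (log2 fold change 9.93), and ASTN1, astrotactin, had 2363 and 1553 in Lv-piPSC-F and 3.14 and 2.02 in pESCLC-F (log2 fold change 9.08). The cadherin CDH8 had 891 and 413 against 0 (at least 208-fold higher), JAKMIP2 had 679 and 382 against 0 (at least 169-fold higher) and DPYSL3 had 5758 and 3924 in Lv-piPSC-F and 38.7 and 81.9 in pESCLC-F (log2 fold change 6.37). SALL3, a zinc finger factor, had 378 and 499 against 0 (at least 139.7-fold higher), and CYP4B1, an oxidase, had 1908 and 207 against 0 (at least 337-fold higher). In the inhibitor media, embryo-derived lines included, ASTN1 lay between 3321 and 10086 and JAKMIP2 between 741 and 1823. DPYSL3 lay there between 4242 and 44065, and FABP7 between 1414 and 11856. CDH8 and SALL3 overlapped Lv-piPSC-F there. ADGRG2, USP44, HERC5, NEXN, KCNJ3, CAMKV and CYP4B1 were below both Lv-piPSC-F samples in every inhibitor-medium sample.

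Abundant genes that rose had other roles. YBX3, a cold shock domain RNA-binding protein, had 10383 and 11749.7 in Lv-piPSC-F and 55.5 and 62.7 in pESCLC-F (log2 fold change 7.52 ± 0.17, adjusted p = 0.00300). CAV1, the coat protein of caveolae, had 9919 and 10109.9 in Lv-piPSC-F and 112 and 147 in pESCLC-F (log2 fold change 6.28 ± 0.19, adjusted p = 0.00300). BCAT1, which transfers the amino group of branched-chain amino acids, had 20931 and 21389 in Lv-piPSC-F and 762 and 1658 in pESCLC-F (log2 fold change 4.23), and G3BP2, of stress granules, had 12958 and 18359.8 in Lv-piPSC-F and 1632 and 2174 in pESCLC-F (log2 fold change 3.03). SOD2, the mitochondrial superoxide dismutase, had 5034 and 7314 in Lv-piPSC-F and 764 and 679 in pESCLC-F (log2 fold change 3.07). ABHD17B, a depalmitoylase, had 5594 and 5128 in Lv-piPSC-F and 401 and 466 in pESCLC-F (log2 fold change 3.63). ND6 had 23378 and 9917 in Lv-piPSC-F and 929 and 821 in pESCLC-F (log2 fold change 4.12). Its share of the ND5 count stood apart in the Lv-piPSC-F libraries, and the part of strand in this was not tested.

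The same contrast of origin was available in FLB2i and FL6i, where Epi-piPSC stood against pESCLC. By the labels' growth protocol, the submitters derive pESCLC-FL6i from pESCLC-F and pESCLC-FLB2i from pESCLC-FL6i, and the reprogramming vector differed from the lentiviral one, but no sample was shared between the contrasts. In a fit over 8 samples the induced-minus-embryo-derived difference in F differed from that in FLB2i for 3892 of 15424 genes (25.2%), and from that in FL6i for 2542 of 15525 (16.4%). The values in F by which HNF4A, APOA1 and DNMT3B were picked enter this test again. HNF4A was at 1.54 to 15.7, few reads, in the 8 samples of the inhibitor media. Its difference of differences was -15.01 ± 1.01 (SE, adjusted p = 0.000583) against FLB2i and -13.50 ± 0.84 (adjusted p = 0.00100) against FL6i. APOA1 gave -11.22 ± 0.61 (adjusted p = 0.000332) and -8.78 ± 1.01 (adjusted p = 0.00389). BMP4 gave -5.18 ± 0.42 (adjusted p = 0.000897) and -3.04 ± 0.51 (adjusted p = 0.0119). For DNMT3B the difference against FLB2i was 4.44 ± 0.47 (adjusted p = 0.00173), and against FL6i it was -0.76 ± 1.08 (adjusted p = 0.675), Epi-piPSC-FL6i having 15249 and 18038 where pESCLC-FL6i had 1340.4 and 210 normalized counts. LIN28A, close to equal in F, was far higher in the induced cells of the inhibitor media, with differences of differences of -7.44 ± 1.55 (adjusted p = 0.0151) and -10.55 ± 1.80 (adjusted p = 0.0124).

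**Figure D5:**
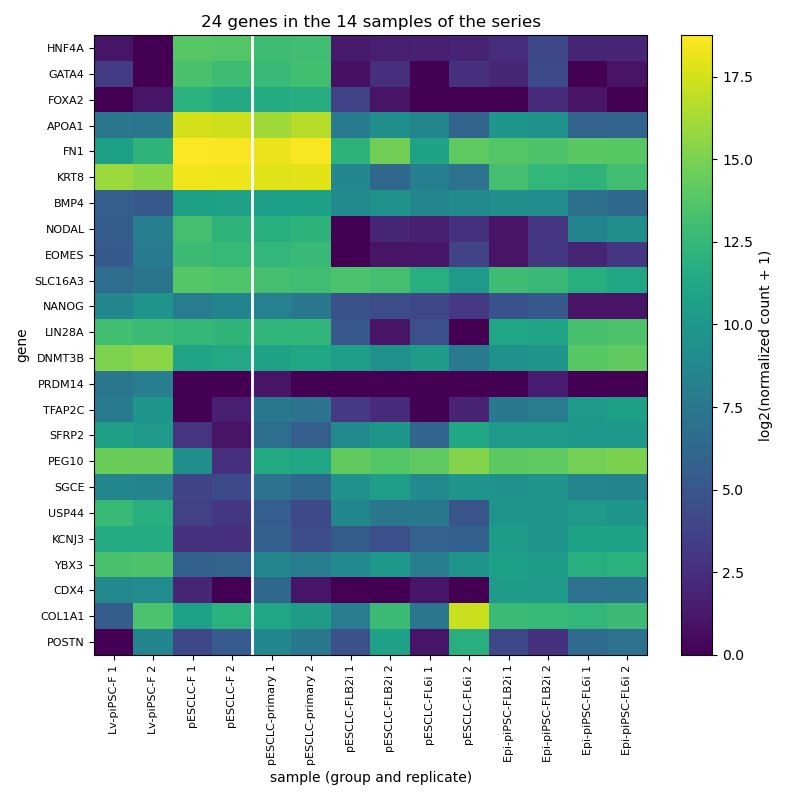
Log2(normalized count + 1), as colour, of 24 genes (rows) in the 14 samples of the series (columns), with the 4 samples compared here left of the white line. HNF4A, GATA4, FOXA2, APOA1 and FN1 are bright in pESCLC-F and pESCLC-primary and darker in the other 10 samples, KCNJ3 and CDX4 are brighter in the induced lines, and PRDM14 is at most 1.84 normalized counts outside Lv-piPSC-F.

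Fitted within their own 4 samples, the contrasts gave 530 DEGs of 14397 genes in FLB2i (3.68%) and 960 of 14452 in FL6i (6.64%). The F contrast shared 117 DEGs with FLB2i (7.16% of its own and 22.1% of the other), of which 64 had the same direction and 53 the opposite. With FL6i it shared 232 (14.2% of its own and 24.2% of the other), 174 in the same direction and 58 in the opposite. In all 3 media 32 genes were DEGs, and 23 of these kept 1 direction, 10 higher and 13 lower in the induced cells. Of the 23, 17 had a symbol. Among the 10 were TFAP2C (log2 fold changes of 7.99 in F, 5.06 in FLB2i and 9.44 in FL6i), KCNJ3 (8.90, 4.96 and 5.02), the homeobox gene CDX4 (7.91, 10.26 and 6.63), the TNF-family ligand CD70 (6.27, 3.15 and 4.37), and EMILIN2, EPHX4 and A4GALT. Among the 13 were AJAP1 (-5.61, -6.05 and -6.56), the Notch coactivator MAMLD1 (-5.86, -3.51 and -7.49), the chromatin reader DPF3 (-6.43, -3.10 and -5.55), PRDM16 (-4.31, -6.93 and -4.42), RYR2 (-3.73, -6.13 and -4.56) and HKDC1 (-6.19, -3.59 and -5.25), and also S1PR1, CNTN4, EPCIP and WSCD2. In the primary outgrowths TFAP2C was at 193 and 142, near the 212 of Lv-piPSC-F sample 1 and above the 0 and 2.02 of pESCLC-F.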

How the data were processed

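Poly(A) RNA was sequenced from 14 porcine samples with a stranded kit, and, per the submitters' processing notes, aligned to Sscrofa11.1 with TopHat2 2.1.0, counted with HTSeq at default settings per the study's methods, and normalized with DESeq2. The deposited signal is a read count per gene divided by a size factor per sample. The steps of its values gave back whole reads in all 14 samples, for 100% of values (largest deviation from a whole read 1.8e-09), and count tests were run on those reads as alternatives: edgeR 4.0.16 called 1604 DEGs and DESeq2 1.42.0 called 1742. All columns were mapped to a sample. Symbols were paired with 14151 of 19588 identifiers through RefSeq; genes without a pair were not analysed here by name.

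The 2 Lv-piPSC-F and 2 pESCLC-F samples were compared with limma 3.58.1 in R 4.3.3, with a trended prior, on log2(normalized count + 1), after a filter of 10 normalized counts in 2 samples. A fold on this scale understates the change of low genes. A bound ("at least") sets a group at 0 to 3 reads per library, and intervals cover counting error only. The members and gene lists were chosen with earlier results of these data known. Named genes are the 12 DEGs with the highest and the 12 with the lowest fold change, the 12 in each direction with the largest difference in level, and list members called with the largest change or defining their list; some items are not reported here. The fits were tested on simulated data. Alternatives were pseudocounts of 0.1 and 5, other filters and scalings, all 14 samples in 1 fit, a replicate block and each sample left out, and, added after seeing the data, genes with opposite-strand exon overlap left out. Reads of mouse feeder cells were not separated here. Promoters are RefSeq's.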

Additional observations from a re-analysis of the deposited data

Results flagged for a closer look

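The difference between induced and embryo-derived cells in F was set against the same difference in the inhibitor media by a test of the difference itself (limma over 8 samples, 2 of each group). It differed from that in FLB2i for 3892 genes. Among the genes named for their change in F, HNF4A gave -15.01 ± 1.01 (log2, SE, adjusted p = 0.000583), GATA4 -12.94 ± 1.76 (adjusted p = 0.00362), SLC28A3 -12.47 ± 3.07 (adjusted p = 0.0262) and FABP7 11.89 ± 1.32 (adjusted p = 0.00191). Against FL6i 2542 genes differed, with HNF4A at -13.50, TF at -11.73 ± 1.08 (adjusted p = 0.00212), FOXA2 at -11.62 ± 0.97 (adjusted p = 0.00183), GATA4 at -10.69 ± 1.84 (adjusted p = 0.0128) and FABP7 at 10.23 ± 1.16 (adjusted p = 0.00378). The genes named here were picked by their values in F, which enter this test again. HNF4A, GATA4, SLC28A3, TF and FOXA2 had few or no reads in the inhibitor media, so their values rest mostly on the fold in F. In FLB2i SLC28A3 lay between 0 and 4.61 normalized counts and GATA4 between 0.769 and 17.5. In FL6i TF and FOXA2 did not exceed 0.999. The call of SLC28A3 in F was lost with edgeR and with DESeq2. Medium, vector and passage differ between these contrasts and cannot be told apart.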

How the results depend on the processing

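The count of 1634 DEGs stayed between 1235 and 1742 under another pseudocount, filter, scaling, tool or a fit over all 14 samples. Without the genes overlapped by opposite-strand exons, an alternative chosen after seeing the data, it was 1540, 703 higher and 837 lower. A fold threshold of 3 in place of 8 gave 3232 DEGs, 1501 higher and 1731 lower. With each sample left out, DEGs ranged from 0 to 2029, those higher from 0 to 869, those lower from 0 to 1160 and genes at the adjusted p threshold from 0 to 6327. The counts of 0 came without either pESCLC-F sample, where 1 residual degree of freedom came from the Lv-piPSC-F pair. No gene of the extraembryonic endoderm list was then called, a count chosen after seeing the data. That list's median log2 fold change was -6.26 without pESCLC-F sample 1 and -6.63 without sample 2. It was -6.33 without Lv-piPSC-F sample 1 and -6.47 without sample 2. The sign of its 24 fold changes could not turn, since the groups lay apart in each of these genes. Same-numbered samples shared only a number (correlation of deviations -0.0028 over 14239 genes), and a replicate block gave 1638 DEGs and 5302 genes at the adjusted p threshold, and 3450 and 2121 genes for the differences against FLB2i and FL6i. Those differences ranged from 1559 to 4488 genes and from 621 to 5585 with each sample left out; the highest came without Lv-piPSC-F sample 2 (FLB2i) and without pESCLC-FL6i sample 1 (FL6i), and without Epi-piPSC samples they were 1559 and 1819, and 636 and 621, and without a pESCLC-F sample they were 1935 and 2227, and 941 and 1051. Some log2 fold changes changed sign. Leaving out each sample gave COL1A1 -5.78 to 2.12, COL1A2 -3.87 to 2.89, COL3A1 -7.02 to 2.71, POSTN -4.75 to 3.69, INHBA -3.25 to 5.30, NDN -0.62 to 5.45, LIFR -0.39 to 0.21, TERT -0.40 to 0.31 and DNMT1 -0.0132 to 0.15. COL1A1 became 0.99, COL1A2 1.68, COL3A1 1.29 and 1.30 and POSTN 2.58 with DESeq2 and edgeR, and POSTN 0.42 with a pseudocount of 5. The higher ends for the collagens, POSTN and INHBA came without Lv-piPSC-F sample 1, the lower without sample 2. Without pESCLC-F sample 2 COL1A2 became 0.34, POSTN 0.16, NDN -0.62 and DPPA2 -0.0237; without Lv-piPSC-F sample 1 DPPA2 became -0.0288, and without Lv-piPSC-F sample 2 TERT became 0.22. None of these genes was called with all 4 samples; without Lv-piPSC-F sample 2 COL1A1, COL1A2, COL3A1, POSTN and INHBA were called lower, and without sample 1 POSTN and INHBA were called higher. The cause was not tested.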
